A study of Mus musculus with 6 samples.

Results

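The cytosolic ribosome is built from a small and a large subunit, each made of ribosomal RNA and many small proteins. The genes for these proteins are transcribed strongly in nearly all cells. Their mRNAs typically begin with a C followed by a run of pyrimidines, the 5′ terminal oligopyrimidine (TOP) tract, through which mTORC1 signalling controls their translation, often with little change in mRNA level. In mouse liver this translational control is known to follow the time of day.

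Ribosomal protein genes were read here as every probe set whose platform annotation names exactly 1 gene, with a symbol Rpl, Rps, Rplp0 to Rplp2 or Rpsa and, after the number, at most 1 letter a, l or x. The choice rests on symbols, not on measured values. It gave 100 probe sets among 44935 on the array, and 46 genes among 18163 with a single-gene probe set, with 44 probe sets of 24 large subunit genes and 56 of 22 small subunit genes. Of these, 86 probe sets of 42 genes passed the filter on low signal (a mean of log2(intensity + 16) above the 40th percentile, equal to about 139 units) and were tested. A further 108 probe sets name a gene of this pattern together with other genes. They cover 42 symbols, 28 of which, among them Rpl3, Rpl5, Rpl10, Rplp1 and Rps27a, have no other probe set here, so the set described is a part of the ribosome.

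Both groups were male mice aged 3 months with the genotype Per2Brdm1/Cry1-/- (C57BL6x129Sv), that is with mutations in 2 repressors of the circadian clock, and RNA was taken from the whole adrenal. The labels call these animals clock-deficient. Before that, the animals were entrained by light and dark over 2 weeks and then kept in darkness. Dissection was at 46 h in 1 group and at 54 h in the other, counted from lights off, with 3 Affymetrix arrays each, called replicates 1, B and C here (the labels give the first no letter). An intact clock was not analysed here. The labels name no animal for an array, so p-values measure the spread between samples, which may be technical. In whole glands, fewer cells of a type and less RNA per cell cannot be told apart.

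The array medians lay between 204 and 217 units and the highest value in the table was 17879. Of 26961 probe sets tested, 31 passed limma at an adjusted p of 0.05. Markers of the adrenal cortex (7 of 7 with a probe set, summed signal 88117 to 97029 units over the 6 arrays) and of the medulla (5 of 6, 49883 to 55989 units) were present on every array, and all 7 and all 5 were lower at 54 h, with 0 past limma. Liver markers moved with time: all 8 had a probe set, and their summed signal was 3533 to 5603 units at 46 h and 7844 to 11735 units at 54 h. Of the 7 tested, 7 were higher and 2 passed. The lowest of the 8 was Fgb, at a mean of 39.0 and 114 units. Their part in the values below was not tested. All 4 red cell markers had a probe set and summed to 1497 to 1942 and then 2020 to 2457 units, with 3 of 4 higher and 1 past limma. Of 5 adipose markers 3 were higher and 0 passed (median log2 change 0.56). Immune markers summed to 23412 to 24249 and then 21340 to 21773 units, with 4 of 8 higher and 0 past limma. The part of these markers in the values below was not tested either. The array's 3′ control for 18S ribosomal RNA, the RNA core of the small subunit, read 1154, 1143 and 1350 units at 46 h and 2395, 1526 and 1751 at 54 h. The 3′ to 5′ ratio of Gapdh, a sign of RNA integrity, averaged 0.996 at 46 h and 0.959 at 54 h. That of beta-actin averaged 1.495 and 1.510. That of pyruvate carboxylase was higher and averaged 7.76 and 6.70. It read 7.86, 7.31 and 8.11 at 46 h and 5.89, 7.69 and 6.52 at 54 h, with overlap. Whether the 18S signal or these ratios have a part in the values below was not tested.

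A minority of annotated start sites showed the sequence feature for which these genes are known, though a larger share than among all genes. RefSeq promoter windows of GRCm38.p6, from 250 bases before to 50 bases after an annotated start, were matched by gene ID for 40 of the 46 genes, in 48 windows. An annotated start with C followed directly by at least 4 C or T on the transcribed strand was found in 8 of 48 windows (16.7%), against 823 of 32851 windows of all genes (2.51%). Sequences of 6 of these tracts are shown because they are what makes an mRNA a TOP mRNA. They were the longest after windows on a single chromosome had been left out, so a longer tract there may be missing. Each sequence runs from 30 bases before the start to 20 bases from the start on, and capitals mark the pyrimidine tract.
Rpl35 (chr2:39005112-39005161, minus strand): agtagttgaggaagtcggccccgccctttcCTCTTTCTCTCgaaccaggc
Rps10 (chr17:27635225-27635274, minus strand): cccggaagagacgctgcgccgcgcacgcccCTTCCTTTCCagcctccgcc
Rps18 (chr17:33955646-33955695, minus strand): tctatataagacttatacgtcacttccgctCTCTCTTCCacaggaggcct
Rps6 (chr4:86857348-86857397, minus strand): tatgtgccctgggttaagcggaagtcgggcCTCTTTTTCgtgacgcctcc
Rpl38 (chr11:114668550-114668599, plus strand): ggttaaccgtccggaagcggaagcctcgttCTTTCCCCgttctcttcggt
Rps27 (chr3:90213629-90213678, minus strand): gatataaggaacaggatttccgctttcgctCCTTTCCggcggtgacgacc

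The tracts of Rpl35, Rps10, Rps18, Rps6, Rpl38 and Rps27 are 11, 10, 9, 9, 8 and 7 bases long. Annotated starts can lie off the true start by some bases, so a run of at least 8 C or T was also sought from 25 bases before to 50 bases after it. It was present in 32 of 48 windows (66.7%) and in 27.2% of all windows. CCGGAAG, a core bound by ETS factors, stood on either strand in 20 of 48 windows (41.7%) against 8.86% of all. AAGATGGC, the core of a YY1 site, was in 3 windows (6.25%, against 2.75%), CTCTTTCC, itself made of pyrimidines, in 4 (8.33%, against 3.12%) and TATAAA in 5 (10.4%, against 13.6%), each on either strand. A match describes the letters in the window and no more.

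Most ribosomal protein probe sets stood near the top of the intensity scale, and a minority stood near the bottom, with almost nothing between. Of the 100, 71 had a mean above 4000 units, 28 a mean under 1000 units and 1, of Rpl22, a mean of 2745 units. The ribosomal protein probe sets were 63 of the 527 on the array with a mean above 8000 units (12.0%) and 32 of the 174 above 12000 units (18.4%). Among large subunit probe sets 33 of 44 were above 4000 units, 28 above 8000 and 12 above 12000. Among small subunit probe sets 38 of 56 were above 4000 units, 35 above 8000 and 20 above 12000. The signal of a probe set also depends on its probes, so this is a place on the scale and not an order of mRNA amounts.

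**Figure D1:**
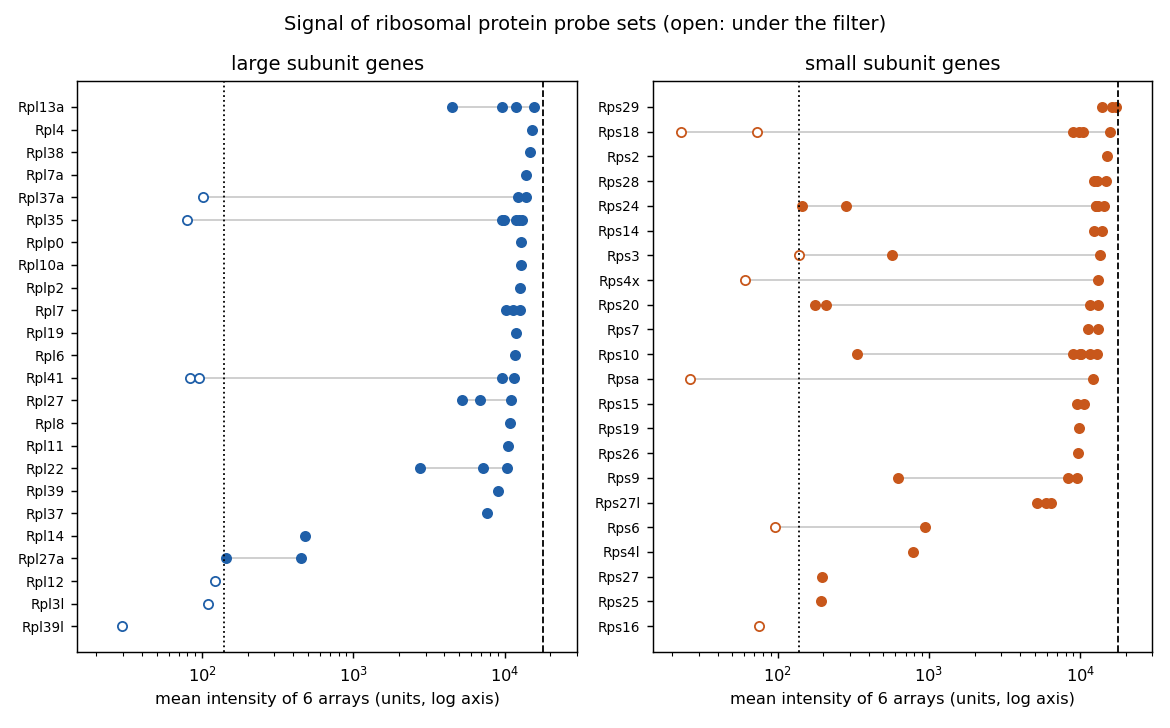
Mean intensity over the 6 arrays (log axis, units) of each ribosomal protein probe set, 1 row per gene, large subunit left and small subunit right. Filled points passed the filter (dotted line) and open points did not, the dashed line marks the highest value in the table, 17879 units, and grey lines join probe sets of 1 gene. The 28 probe sets under 1000 units are separate from the 71 above 4000.

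The 5 genes with the brightest probe sets were Rps29, Rps18, Rpl13a, Rpl4 and Rps2. Rps29, a zinc-binding protein of the small subunit, read 17311, 16608 and 17765 units on the 46 h arrays and 16672, 17254 and 17171 on the 54 h arrays. These values reached the top of the scale and the groups overlapped (log2 change -0.016 ± 0.032 SE). Rps2, a protein at the mRNA entry of the small subunit, read 15082, 14745 and 15295 units at 46 h and 14448, 15622 and 14902 at 54 h, also with overlap. Rpl4, which lines the exit tunnel of the large subunit, read 15698, 14916 and 15828 units at 46 h and 14335, 15764 and 14475 at 54 h. Its groups overlapped, and the log2 change of -0.060 did not pass (SE 0.042; adjusted p = 0.672 in limma). Whether signals this near the top are compressed was not tested. Among members above 8000 units the median SD between arrays of a group was 0.042 on the log2 scale, against 0.045 for all 527 probe sets above 8000 units and 0.135 for all probe sets tested.

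No ribosomal protein probe set passed the test between 46 h and 54 h. In limma, 0 of 86 passed at an adjusted p of 0.05, where 0.115% of all probe sets tested did, and the lowest adjusted p of a member was 0.163. At an unadjusted p of 0.05 limma gave 6 members higher and 0 lower, where the background was 10.1% in either direction, 4.34% higher and 5.75% lower. With array weights, which let limma count noisy arrays less, 6 of 86 members passed at an adjusted p of 0.05, all higher. Of all probe sets 12.9% did, or 3466. The 6 members were a probe set each of Rps6, Rps9, Rps18 and Rps20 and 2 of Rpl27. The median log2 change was -0.0063 over the 86 probe sets, with 38 higher and 48 lower, and -0.020 over all probe sets tested. That split depended on the scaling, with 49 higher and 37 lower under quantile normalization and 58 and 28 with arrays centred on their medians. All probe sets tested moved the same way, from 11977 higher and 14984 lower to 13135 and 13826 and to 13967 and 12994. The groups did not overlap for 8 members, 7 higher and 1 lower, or 9.30%, against 15.5% of all probe sets tested (6.48% higher, 9.05% lower). Above 8000 units, the groups did not overlap for 7.94% of 63 members (4 higher, 1 lower) and for 20.3% of all probe sets.

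The data bound the change tightly for the bright members. The 95% confidence interval lay within a 1.25-fold change in either direction for 69 of 71 probe sets above 4000 units and for 2 of 14 tested probe sets under 1000 units. Over all members tested it did so for 72 of 86 (83.7%), against 33.7% of all probe sets tested. Above 8000 units it did so for 62 of 63 members (98.4%) and for 96.0% of all 527 probe sets. Bright probe sets in general were thus bounded about as tightly as the members. The 2 exceptions among members above 4000 units were probe sets of Rpl27 and Rps9, described below. These bounds hold for the signal as deposited.

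**Figure D2:**
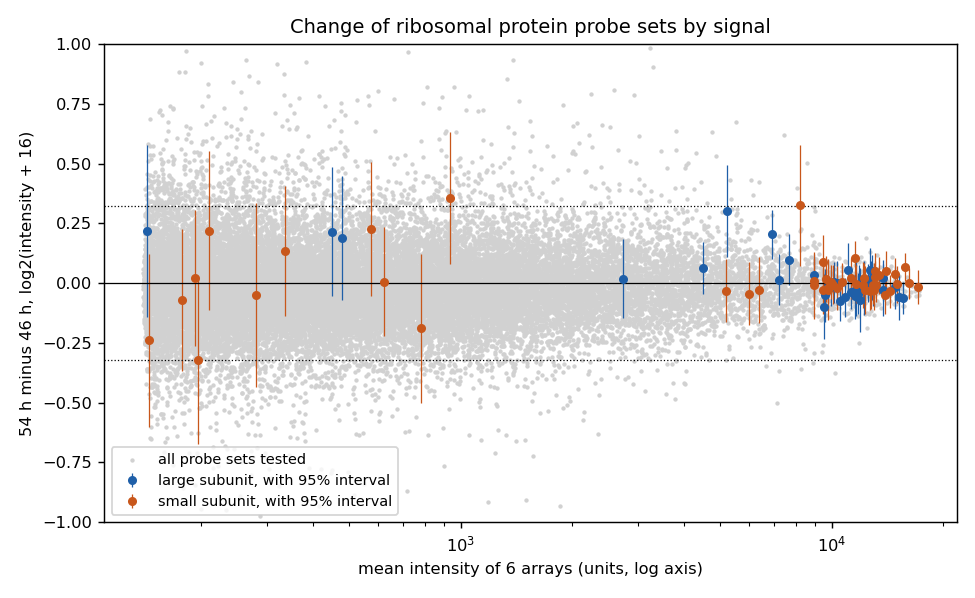
Change from 46 h to 54 h on the log2(intensity + 16) scale against mean intensity (log axis, units) for 37 large and 49 small subunit probe sets, with 95% confidence intervals from limma, over all 26961 probe sets tested in grey. Dotted lines mark a 1.25-fold change either way, and grey points beyond 1 on the log2 scale are not drawn. Bright members lie close to 0 and dim members have wide intervals.

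Over all members tested, the subunits had nearly the same median change. Over the few dimmer ones the medians lay further apart. The median log2 change was -0.0064 over 37 large subunit probe sets (17 higher, 20 lower) and -0.0063 over 49 small subunit probe sets (21 higher, 28 lower), a difference of -0.00011. Without probe sets above 8000 units, 9 large and 14 small subunit probe sets were left, with medians of 0.19 and -0.031, a difference of 0.22 that was not tested. The 0.19 is the change of a lone dim probe set of Rpl14 (± 0.12 SE). In both subunits some genes, such as Rpl22, Rpl27, Rps10 and Rps18, gave more than a single probe set, and these are not replicates. Without _x_at and _s_at probe sets the difference was 0.017. Unadjusted p-values under 0.05 were given by limma for 2 of 37 large and 4 of 49 small subunit probe sets, all higher. Among all probe sets tested, 4.34% were higher at this level and 5.75% lower. Set against their 46 h mean, large subunit probe sets had a median deviation of -0.0095, -0.022 and 0.034 on 46 h replicates 1, B and C and of -0.032, 0.050 and -0.023 on 54 h replicates 1, B and C. Small subunit probe sets had -0.017, -0.018 and 0.022 at 46 h and -0.031, 0.038 and -0.0042 at 54 h. Both subunits were highest on 54 h replicate B and lowest on 54 h replicate 1, and the 54 h arrays spanned the 46 h arrays. All probe sets tested had medians of -0.028, -0.0086 and -0.024 on 54 h replicates 1, B and C, and the 527 above 8000 units had -0.038, 0.024 and -0.024.

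**Figure D3:**
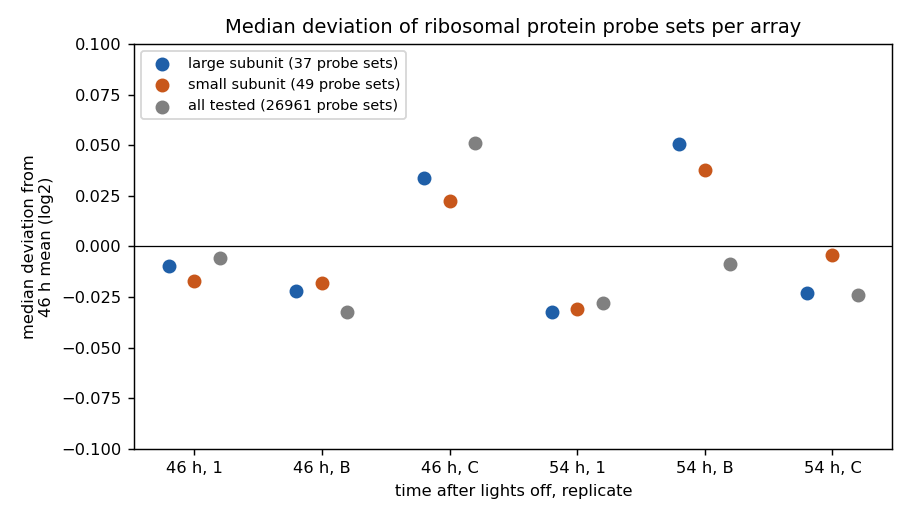
Median deviation from the 46 h mean on the log2(intensity + 16) scale for each array, for large subunit probe sets, small subunit probe sets and all probe sets tested. The subunits move together from array to array, between -0.032 and 0.050, and the 54 h arrays fall on both sides of the 46 h arrays.

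In the large subunit, the stalk proteins that recruit translation factors did not pass the test. Rplp0 read 12916, 12147 and 13254 units at 46 h and 12481, 13416 and 13006 at 54 h, a log2 change of 0.022 ± 0.042 SE. Rplp2 read 12176, 12185 and 13065 units and then 12758, 13530 and 12573, a log2 change of 0.054 ± 0.041 SE. The 46 h and 54 h arrays overlapped for both genes. Rpl11, which with Rpl5 and the 5S RNA forms a particle that can bind the p53 regulator Mdm2, had the largest fall among bright genes read from their brightest probe set. It read 10720, 10629 and 10995 units at 46 h and 9962, 10704 and 10082 at 54 h (log2 change -0.073 ± 0.038 SE, limma adjusted p = 0.563). One 54 h array lay within the 46 h range and the fall did not pass. Rpl19, Rpl13a, Rpl4 and Rpl8, all of the large subunit, had log2 changes between -0.070 and -0.060, none past the test. Rpl39, a small protein of the exit tunnel, had 0.032 ± 0.040 SE.

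Rpl13a, which can also act outside the ribosome to repress inflammatory mRNAs, had 4 probe sets that did not move together. The brightest read 15962, 15808 and 16087 units at 46 h and 14812, 15660 and 15350 at 54 h. It was the only one of the 86 tested whose 54 h arrays all lay below the 46 h arrays (log2 change -0.063 ± 0.030 SE, limma adjusted p = 0.518). The dimmest read 4375, 4401 and 4437 units at 46 h and 4465, 4623 and 4722 at 54 h, all higher (0.063 ± 0.048 SE). The other two had log2 changes of -0.10 and -0.044.

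Rpl27, a large subunit protein, had the member probe sets closest to the threshold. Probe set 1453096_x_at read 6189, 6638 and 6461 units at 46 h and 7580, 7157 and 7476 at 54 h. All 54 h arrays were higher, by 0.20 ± 0.045 SE on the log2 scale (1.15-fold), without passing limma (adjusted p = 0.163). Probe set 1448217_a_at read 4311, 5263 and 4485 units and then 6266, 5258 and 5789, with overlap at replicate B (0.30 ± 0.086 SE, limma adjusted p = 0.284). The brightest, 1416099_at, read 10738, 10549 and 11322 units and then 10615, 12096 and 11211, which overlapped (0.055 ± 0.050 SE). The dimmer Rpl27 probe sets were highest on 54 h replicate 1, while the brightest was highest on 54 h replicate B. Rpl37, another large subunit protein, read 7666, 7049 and 7540 units and then 8292, 7674 and 7855, all higher at 54 h (0.098 ± 0.048 SE, limma adjusted p = 0.535).

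In the small subunit, Rps6, the ribosomal substrate of the S6 kinases, had the highest log2 change of any member tested. Its probe set 1416142_at read 741, 767 and 957 units at 46 h and 1151, 1062 and 944 at 54 h. Means were 822 ± 118 and 1053 ± 104 units (SD, n = 3 each) and 1 of the 54 h arrays lay within the 46 h range (0.36 ± 0.12 SE, limma adjusted p = 0.369). The other Rps6 probe set lay under the filter, with means of 102 and 88.8 units. Of the 4 probe sets of Rps20, 1456436_x_at read 11411, 10937 and 11218 units at 46 h and 12046, 11912 and 12096 at 54 h, all higher (0.10 ± 0.031 SE, 1.07-fold, limma adjusted p = 0.322). A second bright probe set of Rps20 overlapped between times (0.052 ± 0.033 SE), and the dim ones had -0.071 and 0.22.

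Rps18, a protein of the small subunit head, had 4 bright probe sets. The brightest, 1455572_x_at, read 15320, 15402 and 15445 units at 46 h and 15989, 16027 and 16360 at 54 h. All 54 h arrays were higher, by 0.067 ± 0.026 SE on the log2 scale (limma adjusted p = 0.430). The other bright probe sets of Rps18 had 0.0083, -0.021 and -0.028, each overlapping between times. Rps9 showed the widest difference in change between the probe sets of a gene. Probe set 1434624_x_at read 8688, 5966 and 7428 units at 46 h and 9429, 8499 and 9450 at 54 h (0.32 ± 0.11 SE, limma adjusted p = 0.377), with 46 h replicate 1 inside the 54 h range. The brightest probe set of Rps9 had 0.089 ± 0.050 SE and the dimmest 0.0051 ± 0.10 SE.

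Other small subunit genes, read from their brightest probe set, had changes near 0. Rps3, of the mRNA entry channel, had a log2 change of 0.032 ± 0.034 SE. Rps19, the gene most often mutated in Diamond-Blackfan anaemia, had -0.021 ± 0.036 SE. Rpsa, also known as a laminin receptor, had -0.0091 ± 0.043 SE. Rps4x, which is X-linked, had -0.0063 ± 0.032 SE, and Rps24 had -0.034 ± 0.031 SE. None passed limma, with adjusted p between 0.762 and 0.967. The largest fall of a member tested was that of Rps27, a zinc-finger protein of the small subunit, on a dim probe set at 218, 186 and 256 units at 46 h and 149, 202 and 168 at 54 h. Its arrays overlapped (-0.32 ± 0.16 SE, limma adjusted p = 0.532).

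**Figure D4:**
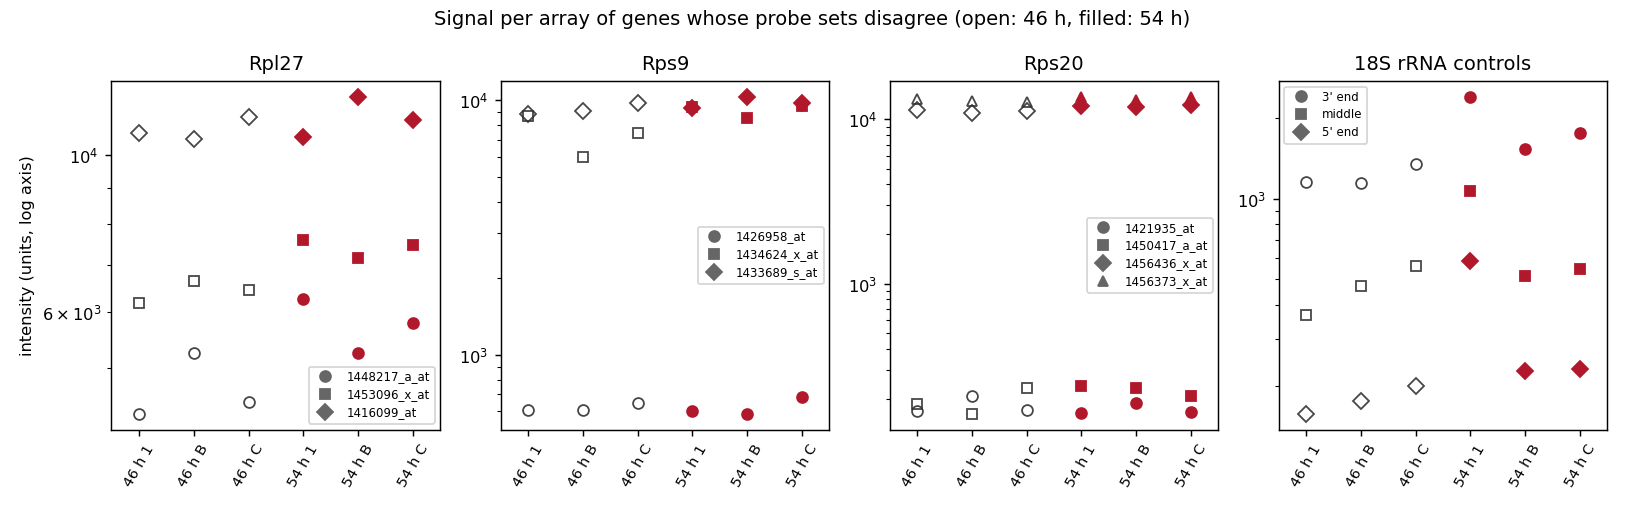
Intensity (log axis, units) on each array for the probe sets of Rpl27, Rps9 and Rps20 and for the array's 18S rRNA control probe sets; open symbols are 46 h, filled symbols 54 h, and each shape is a probe set. In Rpl27 the 2 dimmer probe sets have log2 changes of 0.30 and 0.20 and the brightest 0.055.

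Probe sets of 1 gene often gave signals far apart. Of 23 genes with 2 or more probe sets, 11 had signals that spanned over 10-fold, and the same 11 held both a probe set above 4000 units and one under 1000. For Rps18 the probe set means ran from 22.9 to 15757 units, for Rpsa from 26.5 to 12188, for Rps4x from 61.2 to 13154 and for Rpl35 from 80.0 to 12966. The name of a probe set tells how its probes match: _at probes are unique to a transcript, _a_at probes match transcripts of 1 gene, and _s_at and _x_at probes can match several genes. Of 31 _at probe sets 24 were under 1000 units and 7 above 4000, while 37 of 40 _x_at and 25 of 26 _a_at probe sets were above 4000. Ribosomal protein genes have many processed pseudogenes, and what the _x_at signals owe to other loci was not tested.

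On the log2 scale, changes spanned less than levels. Changes were small over the members as a whole (quartiles -0.031 and 0.031), so a narrow range within a gene does not show agreement. Of 20 genes with 2 or more probe sets tested, 13 had log2 changes within 0.1 of each other and the median range was 0.048. Signs were mixed in 13 of the 20. The widest ranges were 0.32 for Rps9, 0.29 for Rps20, 0.27 for Rps24 and 0.25 for Rpl27. For Rps20 and Rps24 dim probe sets set at least one end of the range.

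The genes with no bright probe set fell into 2 kinds. Rpl12, Rps16, Rps25, Rps27, Rpl14, Rpl27a and Rps6 encode general ribosomal proteins. They were nonetheless read only by probe sets at means of at most 937 units, each gene taken at its brightest. Probe sets that name several genes were left out by the rule, and 86 of those 108 had a mean above 4000 units. Rpl14 and Rpl27a, of the large subunit, had log2 changes of 0.19 ± 0.12 and 0.21 ± 0.12 SE. Rps25, of the small subunit, had 0.021 ± 0.13 SE, and Rpl12 and Rps16 lay under the filter. The others are paralogs known for restricted expression. Rpl39l, known from testis, read 14.1, 24.7 and 30.9 units at 46 h and 35.6, 32.1 and 40.5 at 54 h. Rpl3l, known from striated muscle, read 101, 76.0 and 95.9 units and then 132, 113 and 135. Both lay higher at 54 h on every array but under the filter, and were not tested. Also under the filter, a dim probe set of Rpl41 lay lower at 54 h on every array (means of 108 and 81.7 units). Among all probe sets tested, which lay above the filter, 6.48% lay higher and 9.05% lower without overlap. The share among probe sets under the filter was not counted, so these 3 have no like background here. Skeletal muscle markers summed to 1398 to 1499 units at 46 h and 1857 to 2145 at 54 h, with a probe set for all 4, 2 of 3 tested higher and 0 past limma. Eno3 had means of 1078 and 1533 units, Ckm had 206 units at both times, and the lowest, Acta1, had means of 34.4 and 85.2 units; their part in the Rpl3l values was not tested. Rps4l read 810, 711 and 984 units and then 638, 813 and 732, with overlap (-0.19 ± 0.14 SE). Rps27l, a paralog of Rps27 induced by p53, was bright instead, with 3 probe sets at means of 5191 to 6387 units and log2 changes of -0.044 to -0.029.

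Genes that build or regulate the ribosome did not pass either. Each was read from its brightest probe set, and 0 passed limma in any of 6 lists chosen by function, against 0.115% of all probe sets. For the counts at an unadjusted p of 0.05 in these lists, the share over all probe sets was 10.1%, with 4.34% higher and 5.75% lower. A list of genes taken as other TOP genes was used, and whether each has the tract was not checked. Of its 24 genes tested, 12 were higher and 12 lower (median log2 change 0.0014). Most of them are for translation factors and some, such as Tpt1, Nap1l1 and Hnrnpa1, are not. In limma 2 of the 24, both lower, had an unadjusted p under 0.05. Eif4a2, a helicase, read 6850, 6773 and 7334 units at 46 h and 5445, 6264 and 5704 at 54 h, without overlap (-0.27 ± 0.060 SE, limma adjusted p = 0.166). Of 54 ribosome assembly genes 26 were higher and 28 lower (median -0.017), with 2 in each direction at an unadjusted p of 0.05 in limma. Nop56, a core protein of box C/D snoRNPs, read 900, 862 and 1031 units and then 1328, 1165 and 1159, without overlap (0.38 ± 0.10 SE, limma adjusted p = 0.253). Mdn1, an ATPase of large subunit maturation, had -0.49 ± 0.16 SE (limma adjusted p = 0.338).

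Of 14 RNA polymerase I genes tested 0 reached an unadjusted p of 0.05 in limma (median -0.037). Of 18 genes of mTORC1 and S6 kinase signalling 3 did, all higher, where 4.34% of all probe sets were: Ddit4, an mTORC1 inhibitor induced by stress and glucocorticoids, with 0.24 ± 0.078 SE, the transcription factor Myc with 0.30 ± 0.11 and Sesn2, a leucine sensor, with 0.35 ± 0.13 (limma adjusted p between 0.335 and 0.413; median of the list 0.011). Of 75 mitochondrial ribosomal protein genes, which encode a separate ribosome, 34 were higher and 41 lower (median -0.0064), with unadjusted p under 0.05 for 2 higher and 4 lower, where 10.1% of all probe sets had one. Fau, which encodes a small subunit protein fused to a ubiquitin-like domain, had -0.017 ± 0.058 SE. Rpl22l1, a paralog of Rpl22, had 0.11 ± 0.048 SE (limma adjusted p = 0.478). Its list had 5 genes tested and a median of 0.11, with unadjusted p under 0.05 for 1 higher and 0 lower.

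Among the probe sets that name a ribosomal protein gene with others, 99 were tested and 0 passed limma, with unadjusted p under 0.05 for 5 higher and 0 lower (4.34% and 5.75% over all probe sets), and a median log2 change of 0.0020. The 8 genes with a pyrimidine tract at an annotated start, each read from its brightest probe set, had a median log2 change of 0.020. The 28 tested genes with a window and no such tract had -0.0035.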

How the data were processed

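Each deposited value is a linear intensity of 1 probe set on 1 array, and how the authors made it from the scans is not given in the sources used here. From 45001 probe sets, 64 controls, 1 without values and 1 with a damaged value were left out, and 44935 stayed. The intensities deposited by the authors were turned here into log2(intensity + 16). Probe sets above the 40th percentile of mean log2 value were fitted with limma 3.58.1 in R 4.3.3 (lmFit, eBayes with a trend), and p-values were adjusted by the Benjamini-Hochberg method over all 26961. The filter was taken on the log2 scale after the counts under both scales had been seen (31 called, against 32 with unlogged means), to match earlier processing. Tested on simulated data, the fit made more false calls than its nominal share, for a reason not resolved, and it missed most changes of the smallest simulated size, so counts of calls are approximate and 0 calls does not show that small changes are absent. Standard errors and intervals come from the same fit. The number of arrays, 3 for each time, limits the precision. Exact permutation of 3 against 3 cannot go below p = 0.10.

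Genes were named from the platform annotation, and all 100 probe sets matched RefSeq by Entrez ID, with 0 symbols changed. The members and lists were chosen with earlier results of these data known. Named genes were the 6 largest rises and falls and the 5 brightest and dimmest genes, each by its brightest probe set, the 4 that disagreed most in level and in change, a fixed list, any member past the threshold, and up to 3 genes of smallest p in each related list. Alternatives varied the scaling, filter, offset, variance model, array weights, replicate block, choice of probe sets and arrays left out. Figures were drawn with matplotlib 3.10.9 in Python 3.11.15.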

Additional observations from a re-analysis of the deposited data

Results flagged for a closer look

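The 18S ribosomal RNA control probe sets, which lie outside the main measurement, gave more signal at 54 h. The 3′ control averaged 1216 ± 116 units at 46 h and 1891 ± 451 units at 54 h (SD, n = 3 each), a ratio of 1.56, without overlap. The 5′ control read 157, 175 and 199 units at 46 h and 584, 227 and 231 at 54 h, a ratio of 1.96, also without overlap. The middle control overlapped between the times, with a ratio of 1.51. On all 3 controls 54 h replicate 1 was the highest array, and without it, a comparison chosen after seeing the data, the ratios of the 3′, middle and 5′ controls were 1.35, 1.13 and 1.29.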

How the results depend on the processing

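In every alternative run, 0 ribosomal protein probe sets had an adjusted p under 0.05 in limma, except with array weights, where 6 did (Rps6, Rps18, Rps20, 2 of Rpl27 and 1433689_s_at of Rps9). At an unadjusted p of 0.05 in the main limma fit, 6 of 86 did, where 10.1% of all probe sets tested did. Over all probe sets 31 passed, against 47 after quantile normalization, 50 with arrays centred on their medians, 48 with the filter at the 60th percentile, 61 with robust variance, 3 without the variance trend and 3466 with array weights. Leaving out 1 array gave 2 to 66: 2 without 46 h replicate 1 or 54 h replicate C, 18 without 46 h replicate B, 61 without 54 h replicate B and 66 without 54 h replicate 1. Same-named arrays of the 2 groups did not deviate together (r = -0.060, -0.41 and -0.49 for names 1, B and C) and were not treated as pairs. The r was 0.46 for 46 h B with 54 h C and 0.38 for 46 h C with 54 h B. With 3 arrays in a group these values depend on each other, so they cannot show whether the names pair the arrays. With a replicate block 45 of all probe sets and 0 members passed. Filtering on unlogged means and adding probe sets that name several genes, both chosen after seeing the data, gave 0 members, and the former 32 of all. The members' median log2 change lay between -0.026 (without 54 h replicate B) and 0.021 (arrays centred on medians, or without probe sets above 8000 units), so its sign is not settled. The large minus small difference of -0.00011 moved to -0.0094 with the mean over probe sets of a gene, 0.017 without _x_at and _s_at probe sets and 0.22 without probe sets above 8000 units; the cause was not tested. Of 474 values of 28 named genes under alternatives, 447 kept direction and side of the threshold, 24 changed sign without a call, 3 were newly called with array weights and 0 reversed. Dim probe sets limit the rest: under 1000 units the median SD between arrays of a group was 0.166 on the log2 scale.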
